A study of Homo sapiens with 8 samples.

Results

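Here 10 genes around MYD88, the NF-kB transcription factors and their chemokine targets were followed in 8 RNA-seq libraries from colorectal cancer cells. The genes were MYD88, NFKB1, REL, NFKBIA, TNFAIP3, CXCL1, CXCL2, CXCL8, CCL20 and IFNLR1, taken by symbol out of 28043 genes in the HCT116 table and 63241 in the NCI-H716 tables. The HCT116 table reached from chromosome 1 to part of chromosome 9, so that it held 9 of the 10, and NFKBIA on chromosome 14 was not analysed in that line. The libraries were HCT116 control, HCT116 Z325, NCI-H716 control and NCI-H716 Z325, with 2 libraries in each group. HCT116 is a line from a colon carcinoma with an epithelial appearance, and NCI-H716 is a colorectal cancer line with neuroendocrine features. Z325 is short for ZINC000101867325, a small molecule that the study chose by docking to the fibroblast growth factor receptors (FGFRs). The labels call these libraries Test, and give neither a dose nor a time nor what the controls received. The comparison asked how the transcripts of each line differed after exposure to this candidate FGFR inhibitor.

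MYD88 is the adaptor that joins Toll-like receptors and the interleukin-1 receptor family to the IRAK kinases. From there the signal passes through TRAF6, TAK1 and the IkB kinases, which mark the inhibitor IkB-alpha (the product of NFKBIA) for destruction and release NF-kB dimers, such as those of p50 (from NFKB1), RelA and c-Rel (from REL). NFKBIA and TNFAIP3 are themselves NF-kB targets and close the loop, while CXCL1, CXCL2, CXCL3 and CXCL8 encode neutrophil-attracting chemokines that bowel epithelium makes on such signals. CCL20 encodes the ligand of CCR6, and IFNLR1 encodes the specific chain of the interferon lambda receptor of epithelial cells.

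The promoters are shown first, because they group the members by the letters that NF-kB dimers bind. The RefSeq promoter table (GRCh38.p14, 250 bases before to 50 bases after each start) matched all 10 members, with 2 promoters for NFKB1. The kappaB consensus was searched on both strands. Of the 10 members 7 held a match in any promoter, beside 11.3% of the 35116 promoters of that length, each taken singly. The members were chosen as genes around NF-kB and its targets, so a larger share follows from that choice. The 150 bases before the start are printed 5' to 3' on the strand of each gene, and capitals mark a kappaB match, or in CXCL8 the AP-1 motif TGANTCA. The first set holds the chemokine genes of chromosome 4, with CXCL3, a neighbour that is no member, added because its counts moved most: CXCL1 at chr4:73869243-73869392 on the plus strand, CXCL2 at chr4:74099196-74099345 and CXCL3 at chr4:74038690-74038839 on the minus strand, and CXCL8 at chr4:73740419-73740568 on the plus strand.
CXCL1: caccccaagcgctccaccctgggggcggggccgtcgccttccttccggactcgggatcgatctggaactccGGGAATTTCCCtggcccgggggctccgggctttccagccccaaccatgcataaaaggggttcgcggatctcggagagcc
CXCL2: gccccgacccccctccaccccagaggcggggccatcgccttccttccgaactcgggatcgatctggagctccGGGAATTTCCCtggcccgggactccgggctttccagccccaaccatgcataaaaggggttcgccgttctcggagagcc
CXCL3: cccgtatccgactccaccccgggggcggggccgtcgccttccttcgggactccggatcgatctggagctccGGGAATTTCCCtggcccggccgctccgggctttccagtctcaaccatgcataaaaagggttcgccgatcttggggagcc
CXCL8: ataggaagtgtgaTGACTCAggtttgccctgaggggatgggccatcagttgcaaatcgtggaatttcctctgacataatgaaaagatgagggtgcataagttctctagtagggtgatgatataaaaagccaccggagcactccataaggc

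In CXCL1, CXCL2 and CXCL3 the same 11 letters lay 77 to 79 bases before the start, where matches on both strands overlap by all but 1 base at each end. CXCL1 and CXCL2 shared an unbroken run of 42 bases in this window, CXCL2 and CXCL3 one of 37 bases that includes the kappaB match, and CXCL1 and CXCL3 one of 25 bases. CXCL8 shared no run longer than 9 bases with any of them and held no exact match to the kappaB consensus (GGGRNNYYCC). CXCL8 did hold TGGAATTTCC in these letters, which departs from that consensus in 1 letter. The exact search thus does not set CXCL8 apart from the kappaB genes. It held the AP-1 motif, which 7.71% of all promoters hold, 137 bases before its start.

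The second set holds the regulators: NFKB1 at chr4:102501209-102501358 and REL at chr2:60881424-60881573 on the plus strand, NFKBIA at chr14:35404750-35404899 on the minus strand, and TNFAIP3 at chr6:137867109-137867258 on the plus strand.
NFKB1: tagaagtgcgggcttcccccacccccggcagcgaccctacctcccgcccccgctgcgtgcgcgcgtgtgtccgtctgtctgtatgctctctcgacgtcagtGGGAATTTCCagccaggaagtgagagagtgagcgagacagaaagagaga
REL: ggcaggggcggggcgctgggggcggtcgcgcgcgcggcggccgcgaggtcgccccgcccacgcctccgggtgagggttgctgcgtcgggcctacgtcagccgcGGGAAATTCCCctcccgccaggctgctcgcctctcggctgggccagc
NFKBIA: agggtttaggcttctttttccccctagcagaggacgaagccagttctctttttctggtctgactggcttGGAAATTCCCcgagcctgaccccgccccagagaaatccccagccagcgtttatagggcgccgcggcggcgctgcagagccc
TNFAIP3: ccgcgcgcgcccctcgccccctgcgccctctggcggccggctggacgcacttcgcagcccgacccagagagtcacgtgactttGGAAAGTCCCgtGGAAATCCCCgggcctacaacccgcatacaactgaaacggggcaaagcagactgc

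NFKB1 held its match in 1 of its 2 promoters, 49 bases before the start, and REL held overlapping matches 47 and 46 bases before it. NFKBIA held 1 match, 81 bases before the start, and TNFAIP3 held 2, at 67 and 55 bases. In TNFAIP3 the first of them overlaps a match to the C/EBP motif TTNNGNAA, which 36.8% of all promoters hold. CCL20, which had no counts, also held 1 kappaB match.

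The third set is printed because it holds the 2 members with the lowest Z325 values relative to control in HCT116, MYD88 at chr3:38138511-38138660 on the plus strand and IFNLR1 at chr1:24187290-24187439 on the minus strand.
MYD88: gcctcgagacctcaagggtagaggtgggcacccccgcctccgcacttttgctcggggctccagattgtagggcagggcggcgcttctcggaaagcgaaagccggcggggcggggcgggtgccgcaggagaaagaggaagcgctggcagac
IFNLR1: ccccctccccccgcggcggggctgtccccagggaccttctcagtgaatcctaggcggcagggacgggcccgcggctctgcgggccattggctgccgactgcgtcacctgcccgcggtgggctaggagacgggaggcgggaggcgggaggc

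Neither held a kappaB or an AP-1 match anywhere in the 300 bases. A match is a description of the letters and not evidence of binding, and the absence of one covers only exact matches in this window.

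Before the results, some facts of the libraries bear on them. Total counts were 10210272 to 19738881 in 7 libraries, and 3434620 in HCT116 Z325 replicate 2, so that 3 counts stood for 0.873 CPM (counts scaled to a common library size) there against 0.152 to 0.294 CPM in the others. CPM was scaled within each line, and the HCT116 counts cover only chromosome 1 to part of chromosome 9. The CPM values of different lines are thus not on a common scale, and each line is described alone. EPCAM, a marker of epithelium, was at 1424 to 1655 CPM in HCT116 and at 38.6 to 50.2 CPM in NCI-H716. VIL1 and CDX1 stayed under 1 CPM in HCT116, while NCI-H716 had VIL1 at 11.6 to 24.0 CPM but at most 0.530 CPM of CDH1. The highest epithelial markers in NCI-H716 were KRT8 at 274 to 361 CPM and KRT18 at 270 to 334 CPM, neither of them listed for HCT116. Of 13 epithelial markers 3 stayed under 1 CPM in every NCI-H716 library. Of 9 white blood cell markers listed in HCT116 the summed level was 1.07 to 1.95 CPM in controls and 1.41 to 3.15 CPM with Z325. Of 16 listed in NCI-H716 it was 4.01 to 4.95 CPM in controls and 1.86 to 3.82 CPM with Z325, and PTPRC stayed at or under 0.313 CPM in all 8 libraries. Fibroblast and endothelial markers summed to at most 2.01 CPM in HCT116. They summed to 528 to 597 CPM in NCI-H716, mostly COL3A1 and LUM. FAP was at 46.0 to 71.7 CPM and PDGFRA at 1.15 to 4.01 CPM there, while COL1A1, PDGFRB and PECAM1 were under 0.1 CPM. Of the 12 fibroblast and endothelial markers 7 stayed under 1 CPM in every NCI-H716 library. The part of cell mixture in the results below was not tested.

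MYD88 fell with Z325 in HCT116 and was the only member called in either line. Levels below are in CPM with TMM scaling within a line, and a gene was called at an adjusted p under 0.05 in edgeR's quasi-likelihood test. Of the 8 members with enough counts to be tested in HCT116, 1 was called, beside 5.78% of all 6491 genes tested (2.94% lower and 2.83% higher). Of the 5 tested in NCI-H716 none was called, beside 0.502% of all 14142 (0.403% higher and 0.0990% lower), and 1 of the 5, NFKBIA, had an unadjusted p under 0.05, beside 16.8% of all genes tested. In HCT116 the unadjusted p was under 0.05 for MYD88, IFNLR1 and CXCL8, 3 of 8, beside 23.9% of all genes tested. DESeq2 and limma, the other tools run, also called none of the members in NCI-H716. The median log2 fold change of the tested members was -0.05 in HCT116, beside -0.03 over all genes tested, and 0.24 in NCI-H716, beside -0.01.

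**Figure D1:**
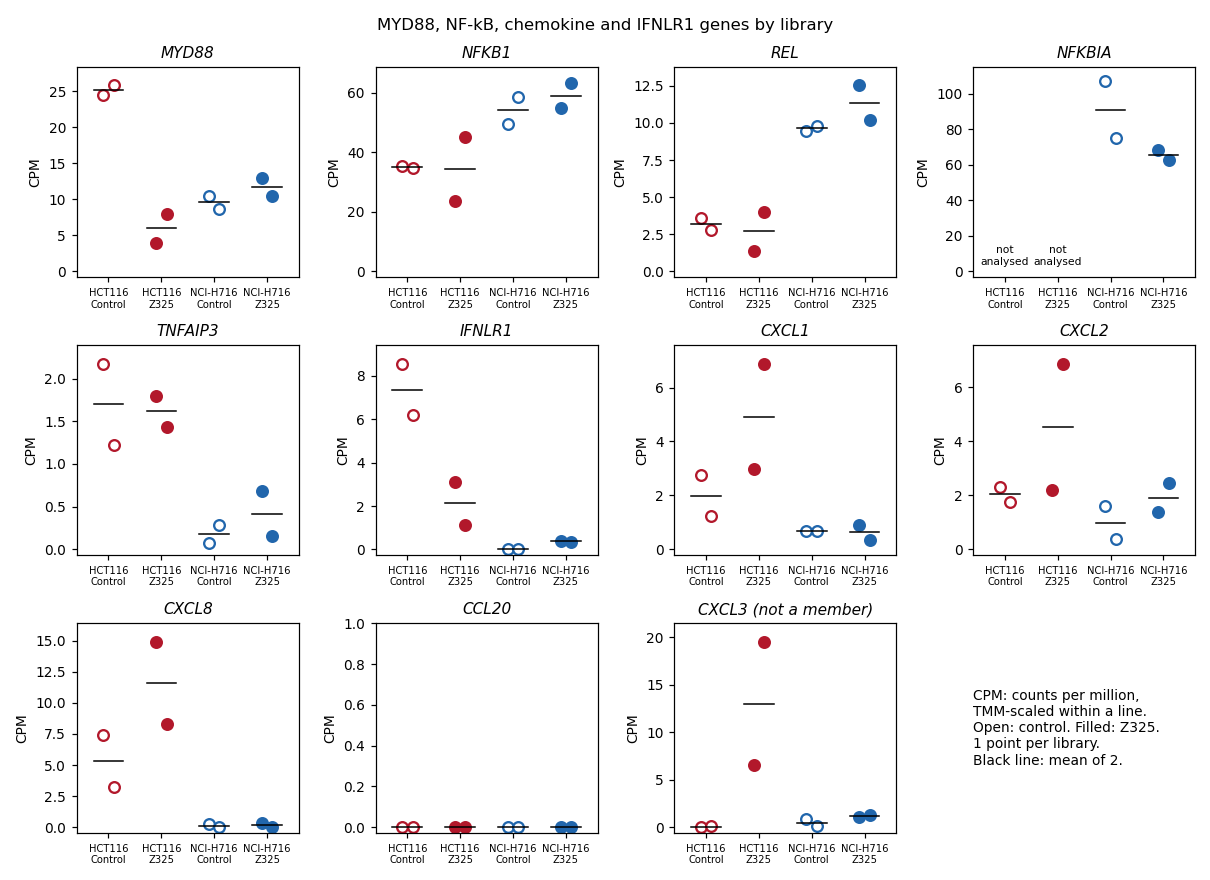
Level of each gene in CPM (library-scaled counts, vertical axes from 0, each panel with its own range) in each of the 8 libraries, with open points for control, filled points for Z325 and a black line for the mean of 2. In HCT116 MYD88 lies at 24.5 and 25.8 CPM in the controls and at 3.91 and 8.02 CPM with Z325, while CXCL3 lies near 0 in the controls and at 6.57 and 19.5 CPM with Z325.

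MYD88, the adaptor itself, lies on chromosome 3 from 38138552 to 38143024 (GRCh38, GENCODE 44, as for the other genes). The HCT116 controls gave 339 and 337 counts of it, and the Z325 libraries of that line 50 and 28. On the CPM scale these were 24.5 and 25.8 in the controls against 3.91 and 8.02 with Z325. Both controls were close together and both Z325 libraries lay far under them, the shallow one included. The group means were 25.2 ± 0.94 CPM and 5.97 ± 2.91 CPM (SD, n = 2), and the fitted log2 fold change was -2.16 (SE 0.39, edgeR adjusted p = 0.0215), a 4.48-fold lower level. In bulk libraries like these, fewer cells that carry a transcript and less of it in each cell cannot be told apart. The log2 fold change was -2.66 without the shallow Z325 replicate 2 and -1.66 without Z325 replicate 1. In those 2 fits the spread comes from the controls alone, so they are no test of the call. The log2 fold change was -2.18 without control replicate 1 and -2.10 without control replicate 2, and the call was lost in both. It was also lost with limma on log2(FPKM + 1) (adjusted p = 0.0829).

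In NCI-H716 MYD88 had 139 and 89 counts in the controls and 169 and 207 with Z325. These were 10.5 and 8.63 CPM against 12.9 and 10.4 CPM, and the groups overlapped. The log2 fold change was 0.28 (SE 0.26, edgeR adjusted p = 0.634). The change in HCT116 minus that in NCI-H716, fitted over all 8 libraries, was -2.45 on the log2 scale (SE 0.49, unadjusted p = 0.000351, edgeR adjusted p = 0.0895). A difference between the lines was thus not called in this fit, nor was it for any of the 8 members tested, beside 0.0654% of all 7642 genes tested (0.0131% higher and 0.0523% lower). MYD88 and IFNLR1, 2 of the 8, had an unadjusted p under 0.05 for that difference, beside 14.3% of all genes tested. For MYD88 it passed with DESeq2 (adjusted p = 0.00388), with no filter (0.000722) and with at least 10 counts in every library (0.0398).

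The genes whose pattern over the 8 libraries was most like that of MYD88 were DFFB, KLHDC8B and TMPPE. Likeness was the mean absolute difference of log2(CPM + 1), centred within each line, over 5013 genes tested in both lines. It was 0.105 for DFFB, the nuclease subunit of the DNA fragmentation factor, 0.210 for KLHDC8B and 0.224 for TMPPE. The 3 genes were picked from these same libraries, so a change like that of MYD88 in each line follows from the choice. In HCT116 DFFB was called (log2 fold change -2.04, edgeR adjusted p = 0.0290). KLHDC8B (-3.33, adjusted p = 0.0656) and TMPPE (-3.94, adjusted p = 0.0835) were not called. The log2 fold change of DFFB was 0.20 in NCI-H716 (adjusted p = 0.854).

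Among the NF-kB subunits, neither NFKB1 nor REL passed the test in either line. NFKB1, which encodes p105 and p50, was at 35.4 and 34.7 CPM in HCT116 controls and at 23.5 and 45.3 CPM with Z325. The Z325 libraries lay on either side of the controls, and the log2 fold change was -0.05 (SE 0.32, edgeR adjusted p = 0.95). In NCI-H716 NFKB1 was at 49.5 and 58.8 CPM in controls and at 55.0 and 63.3 CPM with Z325 (log2 fold change 0.13, SE 0.18, adjusted p = 0.766). Its difference between lines was -0.19 (SE 0.37).

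REL, which encodes c-Rel, was low in HCT116, with 50 and 36 counts in controls and 18 and 14 with Z325. On the CPM scale the order was mixed, at 3.62 and 2.76 against 1.41 and 4.01 (log2 fold change -0.35, SE 0.67, adjusted p = 0.812). In NCI-H716 REL was at 9.47 and 9.79 CPM in controls and at 12.5 and 10.2 CPM with Z325, so that the groups did not overlap, as for 24.3% of all genes tested there in that direction. The log2 fold change was 0.24 (SE 0.26, adjusted p = 0.686). REL shares 5702 exon bases, 33.3% of its own, with a long noncoding RNA on the same strand, ENSG00000267520, so that reads there cannot be told apart. That RNA had no counts in the HCT116 libraries. In NCI-H716 it had 130 and 77 counts in controls and 148 and 253 with Z325, and the sum of both was 19.3 and 17.3 CPM against 23.8 and 22.9 CPM.

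Both inhibitors are transcribed by NF-kB in the textbook circuit, and neither passed the test. NFKBIA, on chromosome 14 from 35401079 to 35404749, had the highest level of the members in NCI-H716, with 1414 and 772 counts in the controls and 896 and 1247 with Z325. These were 107 and 74.9 CPM in controls and 68.4 and 62.7 CPM with Z325. Both Z325 libraries lay under both controls, as for 25.1% of all genes tested in that line, but the lower control lay nearer to them than to the other control. The log2 fold change was -0.47 (SE 0.20, unadjusted p = 0.0396, edgeR adjusted p = 0.276), and it was -0.19 without control replicate 1.

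TNFAIP3 encodes A20, an enzyme that removes and edits ubiquitin on signalling proteins such as RIPK1. It had 30 and 16 counts in HCT116 controls and 23 and 5 with Z325, or 2.17 and 1.23 CPM against 1.80 and 1.43 CPM. The Z325 libraries lay between the controls (log2 fold change -0.05, SE 0.75, adjusted p = 0.981). In NCI-H716 it had 1 and 3 counts in controls and 9 and 3 with Z325, too few for the test. The ratio of summed counts per effective library was 2.14, with an exact 95% interval of 0.648 to 9.10 that covers counting error only. It shares 95 exon bases, 1.47% of its own, with WAKMAR2 on the opposite strand.

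**Figure D2:**
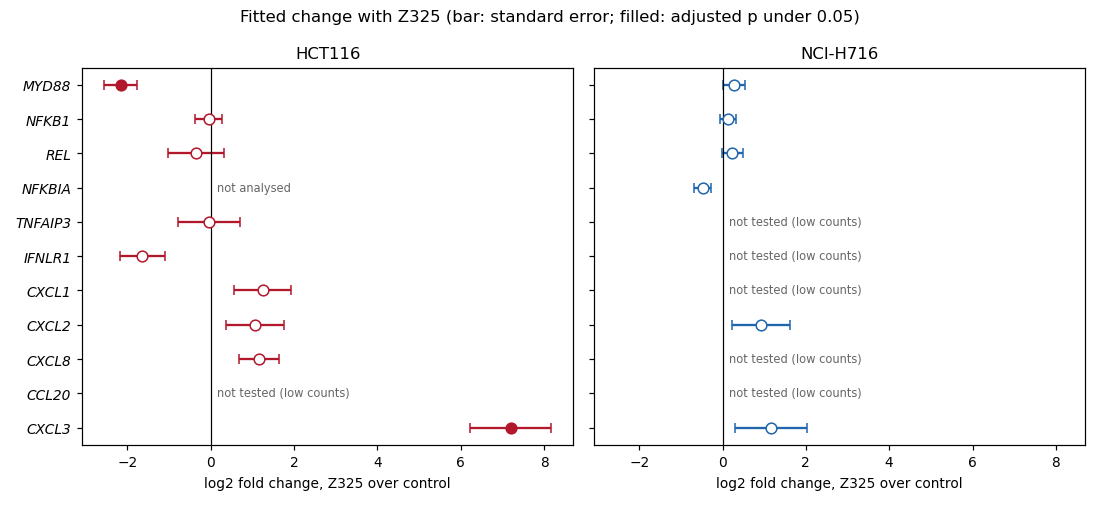
Fitted log2 fold change of Z325 over control (horizontal axis) for each gene in HCT116 (left) and NCI-H716 (right), with bars of 1 standard error and filled points for an adjusted p under 0.05. Filled points are MYD88 at -2.16 and CXCL3 at 7.20, both in HCT116, where CXCL3 passed the filter on low counts through the Z325 libraries alone, and CXCL1, CXCL2 and CXCL8 lie between 1.07 and 1.24 there with open points.

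The chemokine members CXCL1, CXCL2 and CXCL8 each had a higher mean with Z325 in HCT116, and none was called. CXCL8 (interleukin-8) lies on chromosome 4 from 73740519 to 73743716. It had 102 and 42 counts in HCT116 controls and 190 and 29 with Z325. After scaling for depth these were 7.38 and 3.22 CPM against 14.9 and 8.31 CPM. Both Z325 libraries lay over both controls, the shallow one only just over the higher control. The log2 fold change was 1.16 (SE 0.49, unadjusted p = 0.0449, edgeR adjusted p = 0.198). It lay at 1.5 without the shallow Z325 replicate 2 and at 0.62 without Z325 replicate 1.

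CXCL1 (chromosome 4, 73869393 to 73871308) was at 2.75 and 1.23 CPM in HCT116 controls and at 2.97 and 6.88 CPM with Z325. The first Z325 library lay next to the higher control, and the log2 fold change was 1.24 (SE 0.67, adjusted p = 0.306). Without Z325 replicate 1 it was 1.76, and without Z325 replicate 2 it was 0.60. CXCL1 and CXCL8 were the members with both Z325 libraries over both controls in this line, beside 24.8% of all genes tested.

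CXCL2 (chromosome 4, 74097040 to 74099196) was at 2.31 and 1.76 CPM in HCT116 controls and at 2.19 and 6.88 CPM with Z325. Its higher Z325 value rests on 24 counts in the shallow library, and the groups overlapped (log2 fold change 1.07, SE 0.69, adjusted p = 0.396). Without that library the log2 fold change was 0.13.

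In NCI-H716 these chemokine transcripts were scarce. CXCL8 had 3 and 0 counts in controls and 4 and 1 with Z325, and CXCL1 had 9 and 7 against 12 and 7. The ratio of summed CXCL1 counts per effective library was 0.847 (exact 95% interval 0.412 to 1.76, counting error only). CXCL2 had 21 and 4 counts in controls and 18 and 49 with Z325, or 1.59 and 0.388 CPM against 1.37 and 2.46 CPM. It passed the filter there, the groups overlapped, and the log2 fold change was 0.93 (SE 0.70, adjusted p = 0.534).

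CXCL3, the nearest relative of CXCL2 in the pathway list, rose with Z325 in HCT116. It lies on chromosome 4 from 74036589 to 74038807, 58.2 kb from CXCL2 and 165 kb from CXCL1, in a stretch of 359 kb that runs from CXCL8 to CXCL2. It had 0 and 2 counts in the HCT116 controls and 84 and 68 with Z325. These were 0 and 0.153 CPM against 6.57 and 19.5 CPM, and the gene passed the filter on low counts through the Z325 libraries alone. The ratio of summed counts per effective library was 125 (exact 95% interval 34.1 to 1045, counting error only). The fitted log2 fold change was 7.20 (SE 0.97, edgeR adjusted p = 0.00737), a value that depends on the prior count. The call was lost without control replicate 1 or control replicate 2, and with limma on log2(FPKM + 1) (adjusted p = 0.0806).

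In NCI-H716 CXCL3 had 12 and 1 counts in controls and 14 and 26 with Z325, or 0.909 and 0.0970 CPM against 1.07 and 1.31 CPM. The groups did not overlap, as for 24.3% of all genes tested there in that direction. The first Z325 library lay next to the higher control (log2 fold change 1.16, SE 0.86, adjusted p = 0.520). The difference between the lines was 6.01 (SE 1.51, adjusted p = 0.148). CXCL1, CXCL2 and CXCL3 share stretches of transcript, and reads from such stretches can be split between the genes in counting. Of all 50-base runs in GENCODE transcripts, 13.4% of those of CXCL2, 6.01% of those of CXCL3 and 4.57% of those of CXCL1 also occur in another of these genes, and none of those of CXCL8. The sum of all 4 genes, which such splitting leaves as it is, was 12.4 and 6.37 CPM in HCT116 controls. With Z325 it was 26.6 and 41.5 CPM in that line. CXCL3 was added because its counts moved most, so part of this rise follows from that choice. Without CXCL3 the HCT116 sum was 12.44 and 6.21 CPM in controls and 20.02 and 22.06 CPM with Z325. Splitting of reads with CXCL3 can alter that smaller sum. In NCI-H716 the sum of all 4 genes was 3.41 and 1.16 CPM in controls and 3.67 and 4.17 CPM with Z325.

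The genes with the pattern most like CXCL8 over the 8 libraries were PMS2P4 (mean absolute log2 difference 0.118), ZNF514 (0.134) and KIF13B (0.148), of 5014 compared. None of them was called in HCT116, where their adjusted p was 0.181 to 0.451. CCL20 had 0 counts in all 8 libraries. A count of 0 allows up to 0.112 CPM over the HCT116 controls and 0.184 CPM over the HCT116 Z325 libraries, and 0.128 and 0.0909 CPM over the NCI-H716 groups.

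IFNLR1 (chromosome 1, 24154168 to 24187959) was lower with Z325 in both HCT116 libraries and did not pass the test. It had 118 and 81 counts in controls and 40 and 4 with Z325, or 8.53 and 6.21 CPM against 3.13 and 1.15 CPM. MYD88 and IFNLR1 were the members with both Z325 libraries under both controls there, beside 29.0% of all genes tested. The log2 fold change was -1.64 (SE 0.53, unadjusted p = 0.0142, edgeR adjusted p = 0.110). It was called with no filter (adjusted p = 0.0390) and not with DESeq2 (adjusted p = 0.115). Over 10 alternatives the log2 fold change ran from -2.69 without Z325 replicate 1 to -0.83 with limma on log2(FPKM + 1). The fit without Z325 replicate 1 rests on the 4 counts of the shallow library. In NCI-H716 IFNLR1 had 0 counts in both controls and 5 and 7 with Z325. Set against 3 counts over the control group this is 2.85-fold higher, a value that leaves out the counting error of the Z325 counts. Those counts are too few for the test within that line.

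**Figure D3:**
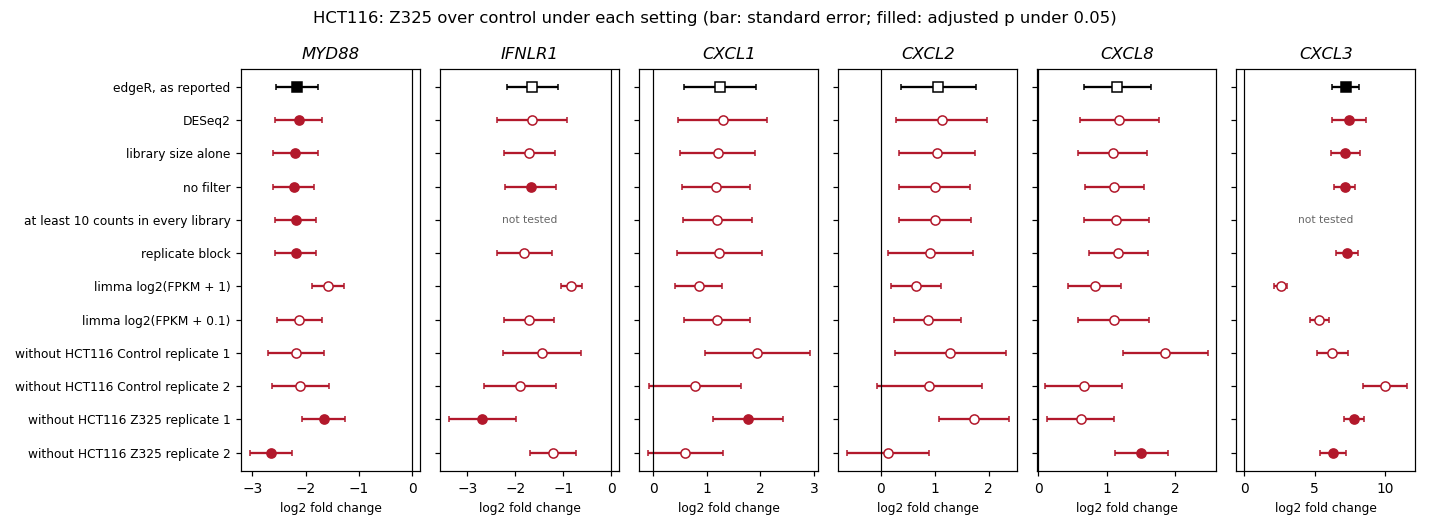
Log2 fold change of Z325 over control in HCT116 (horizontal axes, each with its own range) for MYD88, IFNLR1, CXCL1, CXCL2, CXCL8 and CXCL3 under the reported fit (black square) and each other setting (red points), with bars of 1 standard error and filled symbols for an adjusted p under 0.05. MYD88 stays between -2.66 and -1.58 and CXCL3 between 2.58 and 9.99, while open symbols for both appear with limma and when a control library is left out.

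Levels can be set side by side only per transcript length, here as FPKM, and only within a line. HCT116 FPKM used the length of all listed exons of a gene: 4264 bases for MYD88, 15679 for NFKB1 and 17129 for REL. The order in that line depends on these lengths, and in CPM NFKB1 lay over MYD88 in the controls. By FPKM MYD88 had the highest level in HCT116 controls, 5.96 and 5.99. NFKB1 (2.19 to 2.34), CXCL8 (1.23 to 2.95), IFNLR1 (1.24 to 1.79), CXCL1 (0.891 to 2.09) and CXCL2 (1.25 to 1.72) followed, and the ranges of neighbours in that order overlapped. TNFAIP3 (0.190 to 0.352) and REL (0.159 to 0.219) were lower and overlapped each other. With Z325 MYD88 was at 0.875 and 1.91 FPKM, under both values of CXCL8 (5.48 and 3.26), CXCL1 (2.08 and 5.13) and CXCL3 (2.83 and 8.92). In NCI-H716 controls the order was NFKBIA (65.5 to 107 FPKM), NFKB1 (33.1 to 40.1), MYD88 (4.05 to 4.75) and REL (2.21 to 2.30), with no overlap between neighbours. CXCL2 (0.460 to 1.91), CXCL1 (0.710 to 0.750) and CXCL3 (0.120 to 1.06) came next and overlapped, and CXCL8 was at most 0.170 FPKM.

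The other genes of the pathway were counted from lists that hold the members other than MYD88, by role. Receptors and adaptors had 9 genes tested in HCT116, 3 higher and 6 lower, with a median log2 fold change of -0.46 and none called. At an unadjusted p under 0.05 there were IL1R1, a receptor of interleukin-1, and IL17RB, a receptor of interleukin-17B and interleukin-25. IL1R1 was at 8.68 and 7.29 CPM in controls and at 16.1 and 12.6 CPM with Z325 (log2 fold change 0.86, SE 0.33, adjusted p = 0.167). IL17RB was at 57.8 and 65.4 CPM in controls and at 33.4 and 39.2 CPM with Z325 (log2 fold change -0.77, SE 0.21, adjusted p = 0.0716). It was called with DESeq2, with no filter and with at least 10 counts in every library, and in no other fit that kept all libraries. In NCI-H716 19 were tested, 10 higher and 9 lower, with a median of 0.08 and none called. IL1R1 had 0 and 7 counts in NCI-H716 controls and 26 and 33 with Z325 (log2 fold change 2.5, SE 0.99, adjusted p = 0.248). It passed the filter on low counts there through the Z325 libraries alone. The decoy receptor IL1R2 was at 3.26 and 2.81 CPM in controls and at 0.840 and 1.16 CPM with Z325 (log2 fold change -1.58, SE 0.53, adjusted p = 0.194).

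Kinases and ubiquitin ligases had 8 genes tested in HCT116, 3 higher and 5 lower, with a median of -0.17 and none called. SHARPIN, a subunit of the linear ubiquitin chain assembly complex, was at 16.0 and 27.1 CPM in controls and at 6.88 and 10.6 CPM with Z325 (log2 fold change -1.34, SE 0.39, adjusted p = 0.0820). It was called with DESeq2, with no filter and with at least 10 counts in every library, and in no other fit that kept all libraries. In NCI-H716 21 were tested, 12 higher and 9 lower, with a median of 0.13 and none called. PELI3, a ligase of the Pellino family that acts on IRAK kinases, had 6 and 0 counts in controls and 21 and 55 with Z325 (log2 fold change 3.11, SE 0.92, adjusted p = 0.164). PELI3 passed the filter through the Z325 libraries alone, and over 10 alternatives its log2 fold change ran from 1.01 to 8.0. It was called with no filter and with the replicate block, and in no other fit that kept all libraries. Among inhibitors and feedback genes 8 were tested in HCT116, 1 higher and 7 lower, with a median of -0.45, and 13 in NCI-H716, 5 higher and 8 lower, with a median of -0.09, and none was called in either line. USP4, a deubiquitinase, was at 24.8 and 34.0 CPM in HCT116 controls and at 15.8 and 16.3 CPM with Z325 (adjusted p = 0.106). CYLD, another deubiquitinase, was at 16.9 and 14.6 CPM in NCI-H716 controls and at 21.4 and 23.2 CPM with Z325 (adjusted p = 0.286).

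Of the chemokines and cytokines 8 were tested in HCT116, 7 higher and 1 lower, with a median of 0.99, and CXCL3, which passed the filter through the Z325 libraries alone, was the gene called, beside 2.83% of all genes called higher. The rest of the 7 were CXCL1, CXCL2, CXCL8, IL1A, IL7 and CSF2, none of which passed. In NCI-H716 10 were tested, 7 higher and 3 lower, with a median of 0.15 and none called. The chemokine receptor CXCR4 had 24 and 30 counts in HCT116 controls and 0 and 2 with Z325, a ratio of 0.0611 of Z325 to control (exact 95% interval 0.00722 to 0.232, counting error only), and edgeR's adjusted p was 0.167. CXCR4 passed the filter in HCT116 through the control libraries alone. In NCI-H716 CXCR4 was at 3.63 and 1.75 CPM in controls and at 1.68 and 2.81 CPM with Z325.

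Other NF-kB targets were evenly split, with 3 higher and 3 lower of 6 tested in HCT116 and 8 and 8 of 16 in NCI-H716, and none called. IRF1, a transcription factor of interferon responses, was at 8.24 and 9.05 CPM in HCT116 controls and at 4.14 and 2.29 CPM with Z325 (log2 fold change -1.35, SE 0.44, adjusted p = 0.109). CEBPB, a transcription factor that acts with NF-kB on inflammatory genes, was at 4.77 and 5.33 CPM in NCI-H716 controls and at 10.9 and 17.5 CPM with Z325 (log2 fold change 1.5, SE 0.31, unadjusted p = 0.000605, adjusted p = 0.0763). It was called with DESeq2, with no filter and with the replicate block, and in no other fit that kept all libraries. CEBPB was not analysed in HCT116. The interferon lambda pathway and interferon-stimulated genes had 12 genes tested in HCT116, 2 higher and 10 lower, and 22 in NCI-H716, 10 higher and 12 lower, with none called. Their medians, -0.12 and -0.03, lay close to those of all genes tested. IFIH1, an RNA sensor, was at 12.4 and 11.1 CPM in HCT116 controls and at 5.94 and 6.30 CPM with Z325 (adjusted p = 0.144), and GBP2, a guanylate-binding protein, was at 7.35 and 7.76 CPM in NCI-H716 controls and at 10.5 and 13.9 CPM with Z325 (adjusted p = 0.242).

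**Figure D4:**
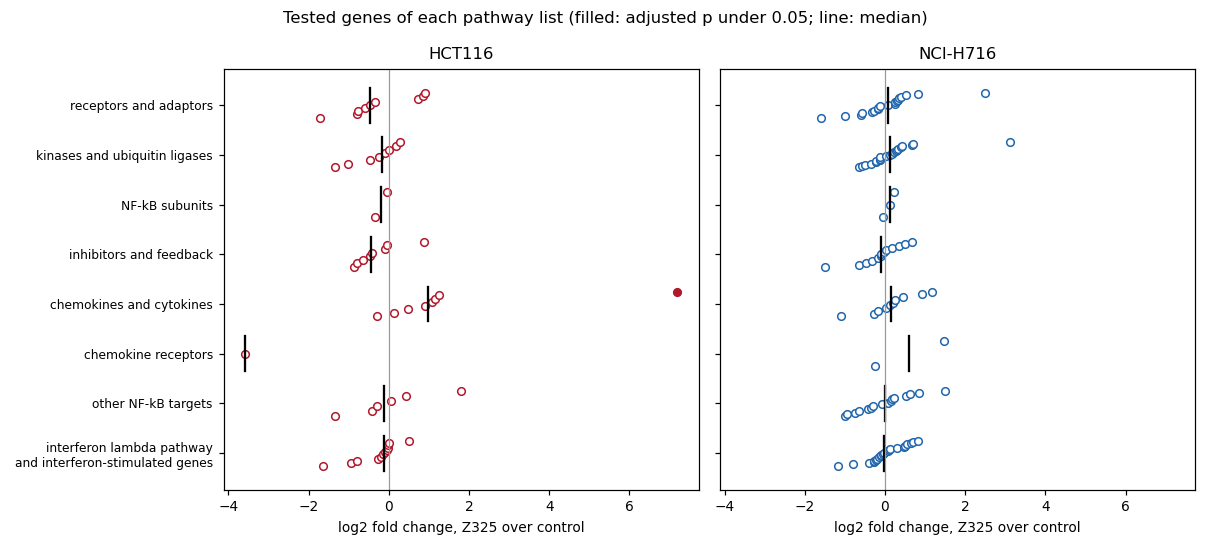
Log2 fold change of Z325 over control (horizontal axis) for each tested gene of 8 pathway lists in HCT116 (left) and NCI-H716 (right), with 1 point per gene, filled at an adjusted p under 0.05, and a black line at the median of each list. CXCL3 in HCT116, at 7.20, is the filled point and passed the filter on low counts through the Z325 libraries alone, and the other points are open.

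ELF3, an epithelial transcription factor taken as a marker, moved alongside MYD88 in HCT116. It was at 14.0 and 14.3 CPM in controls and at 3.44 and 1.72 CPM with Z325 (log2 fold change -2.34, SE 0.42, edgeR adjusted p = 0.0205), whereas EPCAM had a log2 fold change of 0.09 (SE 0.13). In NCI-H716 ELF3 was at 13.3 and 13.6 CPM in controls and at 15.1 and 18.8 CPM with Z325 (adjusted p = 0.485).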

How the data were processed

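RNA from small pools of cells of each line was amplified as full-length cDNA and sequenced, with 2 libraries per group. For HCT116 the authors deposited raw read counts per gene in the featureCounts layout, which reach from chromosome 1 to part of chromosome 9 (28043 genes), so that totals are over the genes listed and not library depths. For NCI-H716 they deposited RSEM estimated counts beside TPM and FPKM, where TPM was not used. The submitters' processing notes name hg38, Bowtie2 2.5.0 and featureCounts, while the study's methods name STAR and RSEM. Whether counting used strand is not given in the sources used here. Long noncoding RNAs on the opposite strand share 22.9% of the exon bases of IRF1 (IRF1-AS1) and 15.7% of those of PELI3 (DPP3-DT). For CEBPB (CEBPB-AS1) the share is 12.6%, and for ELF3 (ELF3-AS1) it is 9.24%. Without strand, reads there cannot be told apart. Estimated counts were rounded. HCT116 FPKM was computed from the counts and listed lengths, and the FPKM of NCI-H716 was used as deposited.

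Genes passing filterByExpr were tested with edgeR 4.0.16 (R 4.3.3; TMM, quasi-likelihood, Benjamini-Hochberg over all genes tested), each line alone and, for the difference between lines, over all 8 libraries. The standard error was the log2 fold change divided by the square root of F. The code was tested on simulated data. DESeq2 1.42.0 and limma 3.58.1 were alternatives. The study describes the 2 libraries of a group as biological duplicates, and neither it nor the labels say how the cultures were kept apart. Intervals and floors of 3 counts cover counting error only. The members and gene lists were chosen with earlier results of these data known. Named beyond the members were list genes called in either line, or among the 3 of a list and line with the smallest unadjusted p (the text gives part of those), and the 3 genes most like MYD88 and CXCL8. IL1A, IL7, CSF2 and ELF3 were named after their values were seen.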

Additional observations from a re-analysis of the deposited data

Results flagged for a closer look

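Both Z325 libraries lay under both controls in HCT116 and over both controls in NCI-H716 for 5 of the 58 pathway genes tested for a difference between lines (8.62%), beside 354 of all 7642 genes (4.63%). They were IFNLR1, IL17RB and IRF1, described above, and TAB2 and NFKBIE, whose differences had an adjusted p of 0.254 and 0.317. For IFNLR1 the HCT116 change minus the NCI-H716 change had an unadjusted p of 0.00203 and an adjusted p of 0.149 in edgeR's quasi-likelihood test over all 8 libraries. IFNLR1 had no counts in the NCI-H716 controls, so that the fitted size is no bound and is left out. For IL17RB the adjusted p of that difference was 0.199, with 0 and 1 counts in NCI-H716 controls and 7 and 4 with Z325. For IRF1 the difference was -2.17 on the log2 scale (SE 0.68) with an adjusted p of 0.210, and its levels were 1.29 and 1.45 CPM in NCI-H716 controls against 2.67 and 2.26 CPM with Z325. None of the 5 differences passed the threshold.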

How the results depend on the processing

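The change of MYD88 in HCT116 kept its direction under all 11 alternatives, between -2.66 and -1.58. It was called with DESeq2, with library size alone, with no filter, with at least 10 counts in every library and with the replicate block. Neither limma fit called it, nor did either fit without a control library. The fits without a Z325 library take their spread from the controls alone and are no test of the call. Among genes that were not called in the fit reported, SHARPIN and IL17RB in HCT116 were called with DESeq2 (adjusted p = 0.0277 and 0.0265), with no filter (0.00682 and 0.0324) and with at least 10 counts in every library (0.0378 and 0.0403). CEBPB in NCI-H716 was called with DESeq2 (0.00865), no filter (0.000221) and the replicate block (3.29e-06), and PELI3 with no filter (0.00319) and the block (0.00279). A single alternative each called CXCR4, IRF1 and IL1R1 in HCT116 and IL1R1 in NCI-H716. The members CXCL1 and CXCL8 passed in HCT116 only when a Z325 library was left out, in fits that are no test of a call. Most members rest on fewer than 100 counts in a library, which limits what could be detected.

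In HCT116, 184 genes were called higher and 191 lower. DESeq2 called 402 and 357, no filter called 423 lower, at least 10 counts in every library called 345 lower, and limma called 29 and 18 with log2(FPKM + 1) and 22 and 15 with log2(FPKM + 0.1). Members called lower were 2 with no filter and 0 with either limma fit. Leaving out each library gave 15 to 514 genes higher and 6 to 562 lower, 0 to 1 members higher and 0 to 2 lower. Without control replicate 1 the counts were 15 and 29, without control replicate 2 they were 17 and 6, without Z325 replicate 1 they were 438 and 533, and without Z325 replicate 2 they were 514 and 562. Such fits assume that the lone library varies like the other group.

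In NCI-H716, 57 were called higher and 14 lower. DESeq2 called 173 and 191, library size alone 28 lower, no filter 311 and 476, and limma 5 and 1 with either pseudocount. Leaving out each library gave 52 to 503 higher and 10 to 895 lower, and 0 members, with the highest counts without Z325 replicate 1.

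The difference between lines called 1 gene higher and 4 lower. DESeq2 called 79 and 53 (1 member lower), library size alone 2 higher, no filter 48 and 58 (2 members lower), and at least 10 counts in every library 15 and 11 (1 member lower). Leaving out each library gave 0 to 25 higher, 0 to 38 lower, 0 members higher and 0 to 1 lower.

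With the replicate number as a block, NCI-H716 had 1061 genes higher and 1336 lower, 1 of them a member (NFKBIA, adjusted p = 0.00935), and the difference had 4 and 8. Same-numbered libraries deviated together with a correlation of -0.0217 in HCT116 and 0.286 in NCI-H716, and no label pairs them.

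Over the single left-out libraries, the HCT116 log2 fold change ran from -0.55 to 0.35 for NFKB1, from -1.15 to 0.31 for REL and from -0.41 to 0.41 for TNFAIP3, and the difference between lines from -0.70 to 0.14 for NFKB1, from -2.35 to 0.13 for TNFAIP3, from -1.29 to 0.77 for CXCL2 and from -3.48 to 2.34 for CXCL8. Direction turned in HCT116 for NFKB1 (0.35) and REL (0.31) without Z325 replicate 1, and for TNFAIP3 without control replicate 1 (0.41) or Z325 replicate 2 (0.10). The difference turned for NFKB1 without HCT116 Z325 replicate 1 (0.14) and for TNFAIP3 without NCI-H716 Z325 replicate 1 (0.13). For CXCL2 it turned with no filter (-0.032), with the replicate block (-0.12), without HCT116 control replicate 2 (-0.06) or Z325 replicate 2 (-0.81), and without NCI-H716 control replicate 1 (-1.29) or Z325 replicate 1 (-0.24). For CXCL8 it turned without NCI-H716 control replicate 1 (-3.48) or Z325 replicate 2 (-0.08). The cause was not tested. REL summed with the RNA that overlaps it, an alternative chosen after seeing the data, had a log2 ratio of group means of 0.35 in NCI-H716.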
